A study of Homo sapiens with 6 samples.

Results

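N6-methyladenosine (m6A), a methyl mark inside messenger RNA, is written by a nuclear complex whose subunit genes are METTL3, METTL14, WTAP, VIRMA, ZC3H13, CBLL1, RBM15 and RBM15B. They were found by gene name among the 31853 genes of the deposited table. All 8 were present, each once, and all 8 passed the filter on low counts. They were measured by poly(A) RNA sequencing in Mon-Mac-6 cells, a human cell line established from an acute monocytic leukaemia and the only line of the series. One group of 3 libraries came from cells given 500 nM WD6305 for 48 h, and the other 3 libraries came from cells given DMSO, the vehicle. The series title describes WD6305 as a PROTAC against METTL3, that is, a molecule designed to bring its target protein to an E3 ubiquitin ligase for degradation. No label says that the libraries of a group were grown as separate cultures, so the p-values below measure the spread between these libraries, which may be technical.

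In the complex, METTL3 is the catalytic subunit and METTL14 is its obligate partner, which helps to hold the RNA but does not itself transfer the methyl group. WTAP binds this pair and places it in nuclear speckles, VIRMA and ZC3H13 are large scaffold proteins, CBLL1 (also called HAKAI) is a RING finger protein, and RBM15 and its paralog RBM15B are RNA-binding adaptors. Acute myeloid leukaemia cells are known for their dependence on METTL3, and RBM15 is known from a fusion gene of megakaryoblastic leukaemia. A degrader acts on the protein, so the METTL3 message neither tests the labels nor reports on the protein.

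The difference between the catalytic subunit and its partner can be read in their coding sequence. The 60 bases around the codons of the catalytic motif (DPPW) of METTL3 and of the matching motif (EPPL) of METTL14 are shown 5′ to 3′ on the coding strand from GENCODE release 29 transcripts (GRCh38), with the 4 motif codons in capitals.
METTL3: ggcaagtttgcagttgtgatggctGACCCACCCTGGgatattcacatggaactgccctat
METTL14: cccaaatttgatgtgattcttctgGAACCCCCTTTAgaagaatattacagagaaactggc
The METTL3 stretch lies in exon 6 of 11, at chr14:21500581-21500640 on the minus strand, and its motif covers residues 395 to 398 of 580. The METTL14 stretch lies in exon 7 of 11, at chr4:118697228-118697287 on the plus strand, and its motif covers residues 192 to 195 of 456. These are reference sequences, and the deposited table holds no reads of either stretch.

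The message of every subunit gene was detected in each library, and 5 of the 8 rose under WD6305 while none fell. Among all 18138 tested genes, 12.2% were called higher and 23.4% were called in either direction (edgeR quasi-likelihood test, Benjamini-Hochberg adjusted p under 0.05). Among the 11119 tested genes with at least 1 FPKM (fragments scaled to length and library size) in at least 3 libraries, 17.8% were called higher. For the 5 called genes, METTL3, METTL14, WTAP, CBLL1 and RBM15, the treated libraries were above the vehicle libraries without overlap. This held in CPM (counts scaled to library size with the TMM factor of edgeR) and in FPKM. Of all tested genes, 20.4% had WD6305 above without overlap in CPM and 40.8% had no overlap in either direction, and in FPKM it was above for 23.6% of 11144 genes. With 1 library left out at a time, 2 to 6 of the 8 were called: 2 without WD6305 1, WD6305 3 or DMSO 2, 3 without WD6305 2, 4 without DMSO 1 and 6 without DMSO 3. Without WD6305 1 and DMSO 3 together it was 5, with VIRMA and ZC3H13 in place of METTL3 and CBLL1. The 8 log2 fold changes, WD6305 over DMSO, ran from 0.06 to 0.59 with a median of 0.22, against a median of 0.00033 over all tested genes. The genes were chosen with earlier results of these data known, so this count describes them and is no test of the complex as a whole. In bulk RNA, a change in the RNA of each cell and a change in the mix of cells cannot be told apart.

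**Figure D1:**
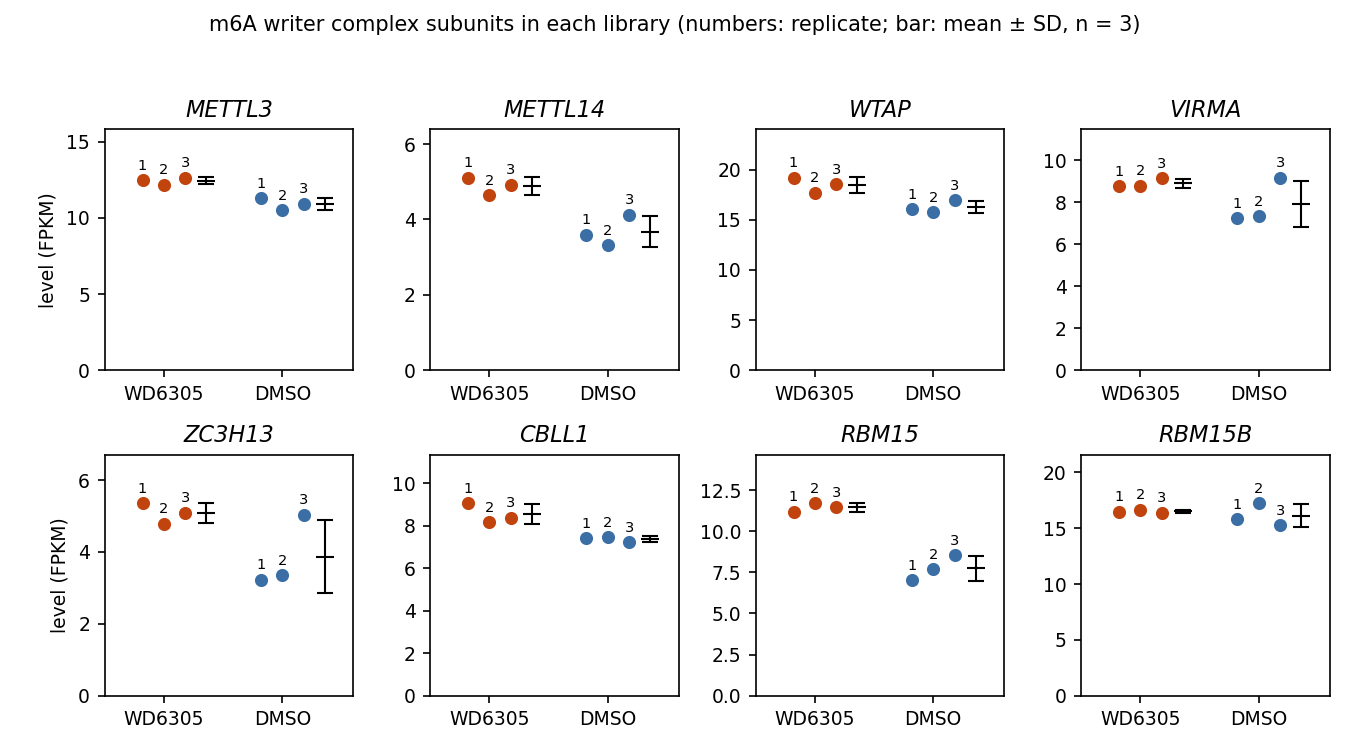
Level of each subunit gene in FPKM (vertical axes, from 0) in the 3 WD6305 and 3 DMSO libraries, with replicate numbers above the points and the mean ± SD beside them. The WD6305 points lie above all DMSO points for METTL3, METTL14, WTAP, CBLL1 and RBM15, while for VIRMA and ZC3H13 the library DMSO 3 lies at the WD6305 level.

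The libraries were similar in depth and differed in their content of marker transcripts of other cell types. Deposited counts summed to between 64525948 and 69726451 in the WD6305 libraries and between 66525685 and 71155346 in the DMSO libraries, and a subunit gene had between 1602 and 8542 counts in a library. All 10 monocytic line markers, LYZ, SPI1 and CD33 among them, had counts in each library. Their summed level was 13390 to 14840 CPM under WD6305 and 7976 to 8462 CPM with DMSO. Most of this sum was LYZ (9152 to 10530 CPM and 5256 to 5755 CPM) and ELANE (3147 to 3223 CPM and 1603 to 1753 CPM). Of the 10 markers, 7 were called higher and 2, CD14 and MPO, lower, where 12.2% of all tested genes were higher and 11.2% lower. The keratinocyte and epithelial list of 14 genes summed to 21.2 CPM in WD6305 1, 224.9 and 230.9 CPM in WD6305 2 and 3, 279.9 and 268.9 CPM in DMSO 1 and 2, and 32.4 CPM in DMSO 3. Of that list, 6 genes were at 0 in WD6305 1 (KRT1, KRT2, KRT6A, KRT14, KRT16 and CDH1), and KRT2 was at 0 in all 6 libraries. Of the 12 genes of the list that were tested, KRT8 (log2 fold change -0.83) and KRT18 (-0.81) were called lower, with adjusted p = 0.0114 and 0.00418 (edgeR), and the other 10 were not called. The fibroblast list of 9 genes summed to 80.8 CPM in WD6305 1, 14.7 to 15.6 CPM in the other WD6305 libraries and 19.2 to 22.1 CPM with DMSO, with COL1A2, DCN and LUM at 0 in 5 libraries. The lymphoid and erythroid list, of which 5 of 9 genes were matched, summed to 137.7 to 167.5 CPM under WD6305 and 150.3 to 181.6 CPM with DMSO. WD6305 1 and DMSO 3 also stood apart from the other 4 libraries on the second principal component, which held 16.3% of the variance. The part of these transcripts in the results below was not tested, and values without both libraries are given where a call changed or a value moved by over 1.5 times.

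METTL3 (ENSG00000165819), the methyltransferase itself, occupies positions 21498133 to 21511342 of chromosome 14, minus strand, in GRCh38. Its level was 12.5, 12.2 and 12.7 FPKM in the WD6305 libraries, against 11.3, 10.5 and 10.9 FPKM in the DMSO libraries. All 3 treated libraries were above the highest vehicle library, by a margin that is small beside the level. The message rose 1.16-fold (edgeR adjusted p = 0.0218, log2 fold change 0.21 with an SE of 0.05, 95% interval of the fold 1.06 to 1.26). On FPKM, the exact permutation test (two-sided) reached p = 0.1, the smallest that 3 libraries against 3 can reach. The call did not hold without WD6305 1, WD6305 2, WD6305 3 or DMSO 2 (adjusted p = 0.0501 to 0.0931, edgeR) or without WD6305 1 and DMSO 3 together (0.0588), while the log2 fold change stayed between 0.17 and 0.25 in the 16 alternatives, whose adjusted p ran from 0.0083 to 0.0931. The 3′ end of METTL3 overlaps 1043 bases of TOX4, a gene on the opposite strand that also rose (edgeR adjusted p = 0.0166, log2 fold change 0.23 with an SE of 0.05), and no source used here says whether counting went by strand.

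METTL14 (ENSG00000145388), the partner of METTL3, occupies positions 118685392 to 118715430 of chromosome 4, plus strand. Its 3 WD6305 libraries had 5.11, 4.65 and 4.92 FPKM and its 3 DMSO libraries had 3.59, 3.32 and 4.13 FPKM. The 2 groups did not overlap, and DMSO 3 was the vehicle library nearest to the treated ones. METTL14 rose 1.35-fold (edgeR adjusted p = 0.00823, log2 fold change 0.44 with an SE of 0.09), and it passed in all 16 alternatives run, with adjusted p between 7.83e-05 and 0.0441. No other gene of the deposited table overlaps METTL14.

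WTAP (ENSG00000146457), which anchors the catalytic pair in the complex, occupies positions 159725585 to 159756319 of chromosome 6, plus strand. It had 19.2, 17.7 and 18.6 FPKM under WD6305 and 16.1, 15.8 and 17.0 FPKM with DMSO, again with no overlap between the groups. The rise was 1.16-fold (edgeR adjusted p = 0.0165, log2 fold change 0.21 with an SE of 0.05). The call did not hold without WD6305 1, WD6305 3 or DMSO 2, where the log2 fold change was 0.18, 0.20 and 0.19 (adjusted p = 0.0640 to 0.0730, edgeR, within a range of 0.00515 to 0.0730 over the alternatives). SOD2, which shares 1769 bases with WTAP on the opposite strand, had a log2 fold change of 0.06 (SE 0.05) and was not called (adjusted p = 0.376, edgeR).

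The scaffold gene VIRMA (ENSG00000164944; minus strand of chromosome 8, 94487689 to 94553529) did not pass the test. Its WD6305 libraries had 8.76, 8.80 and 9.16 FPKM and its DMSO libraries 7.24, 7.33 and 9.18 FPKM. DMSO 3 was the highest of the 6, and the other vehicle libraries were below every treated one. The fold was 1.15 (95% interval 1.01 to 1.3, adjusted p = 0.120, edgeR quasi-likelihood). Without DMSO 3 the log2 fold change was 0.30 and passed (adjusted p = 0.00293), and without DMSO 3 and WD6305 1 together it was 0.31 (adjusted p = 0.00537), within a range of 0.00293 to 0.366 over the alternatives.

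ZC3H13 (ENSG00000123200; minus strand of chromosome 13, 45954465 to 46052746), a zinc finger protein known in mouse cells to keep the complex in the nucleus, showed the same arrangement of libraries with a wider gap. It had 5.36, 4.79 and 5.09 FPKM under WD6305 and 3.23, 3.35 and 5.04 FPKM with DMSO. DMSO 3 thus lay among the treated libraries and the other vehicle libraries far below them. The fold was 1.34 with a wide interval (1.06 to 1.69, SE 0.15 on the log2 scale), and the test was missed (adjusted p = 0.0763, edgeR quasi-likelihood). Without DMSO 3 the log2 fold change was 0.64 (adjusted p = 0.000741), without DMSO 3 and WD6305 1 it was 0.60 (0.00168), and with a term for these libraries it was 0.44 (0.00921, edgeR in each), within 0.000741 to 0.235 over the alternatives.

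CBLL1 (ENSG00000105879; plus strand of chromosome 7, 107743073 to 107761667) had 9.06, 8.16 and 8.38 FPKM under WD6305 and 7.42, 7.46 and 7.21 FPKM with DMSO. The groups did not overlap, and WD6305 1 was the highest library. CBLL1 rose 1.18-fold (edgeR adjusted p = 0.0349, log2 fold change 0.24 with an SE of 0.07). Its call was the weakest of the 5: it was lost when any 1 of the 6 libraries was left out (adjusted p = 0.0507 to 0.109) and without WD6305 1 and DMSO 3 together (0.117), within 0.0130 to 0.117 over the alternatives. The antisense gene CBLL1-AS1 shares 1509 bases with it and had 0.48 to 0.65 FPKM under WD6305 and 0.36 to 0.52 FPKM with DMSO.

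RBM15 (ENSG00000162775; plus strand of chromosome 1, 110338506 to 110346677), which binds RNA and brings the complex to nearby adenosines, had the largest change of the 8. Its level was 11.2, 11.7 and 11.5 FPKM in the WD6305 libraries, against 7.01, 7.69 and 8.55 FPKM in the DMSO libraries. The gap between the lowest treated and the highest vehicle library was wider than the whole range within either group. RBM15 rose 1.5-fold (edgeR adjusted p = 0.000821, log2 fold change 0.59 with an SE of 0.07, 95% interval of the fold 1.34 to 1.69) and passed in all 16 alternatives run, with log2 fold changes of 0.51 to 0.67. RBM15-AS1, antisense to its first 666 bases, had at most 0.47 FPKM in any library.

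RBM15B (ENSG00000259956; plus strand of chromosome 3, 51391285 to 51397908), the paralog with the same kind of role, had the smallest change. It had 16.5, 16.7 and 16.4 FPKM under WD6305 and 15.8, 17.3 and 15.3 FPKM with DMSO. The treated libraries lay inside the vehicle range, and the fold was 1.04 with a 95% interval of 0.952 to 1.14 (adjusted p = 0.522, edgeR quasi-likelihood, two-sided). A rise as large as that of RBM15 is therefore outside the interval for RBM15B. Without WD6305 1 and DMSO 3 together the log2 fold change was 0.01, against 0.06 with all libraries, and neither was called (adjusted p = 0.907 and 0.522, edgeR, within 0.205 to 0.907 over the alternatives). DCAF1, on the opposite strand and sharing 2042 bases with RBM15B, had a log2 fold change of -0.08 (SE 0.05, adjusted p = 0.322, edgeR).

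**Figure D2:**
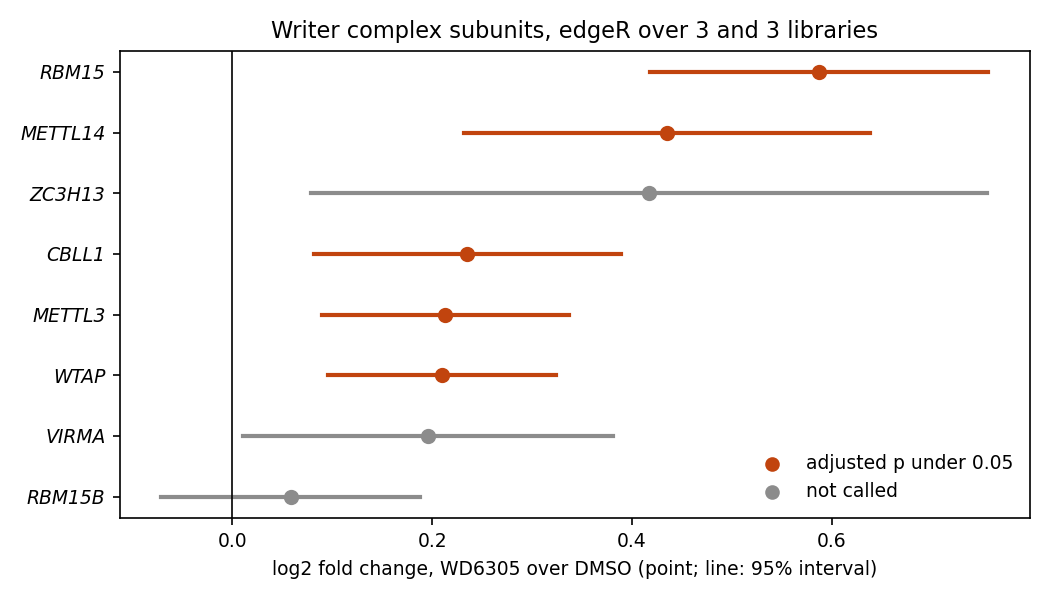
Log2 fold change of each subunit gene, WD6305 over DMSO (horizontal axis), with its 95% interval from the edgeR fit over all genes, 3 libraries per group. RBM15 at 0.59 and METTL14 at 0.44 are the largest called changes, ZC3H13 has the widest interval, and only the interval of RBM15B, around 0.06, reaches below 0.

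The subunit messages differed in their FPKM. FPKM divides by a length whose definition no source used here gives. The order of genes, their shares and the size of each ratio between genes rest on that length. On this scale, the order under WD6305 was WTAP (18.5 ± 0.763), RBM15B (16.5 ± 0.133), METTL3 (12.4 ± 0.232), RBM15 (11.5 ± 0.260), VIRMA (8.91 ± 0.220), CBLL1 (8.53 ± 0.469), ZC3H13 (5.08 ± 0.285) and METTL14 (4.89 ± 0.231, mean ± SD, n = 3). With DMSO the order was WTAP (16.3 ± 0.617), RBM15B (16.1 ± 1.03), METTL3 (10.9 ± 0.396), VIRMA (7.92 ± 1.10), RBM15 (7.75 ± 0.772), CBLL1 (7.36 ± 0.134), ZC3H13 (3.87 ± 1.01) and METTL14 (3.68 ± 0.412). Neighbours whose ranges overlapped were VIRMA with CBLL1 and ZC3H13 with METTL14 under WD6305. With DMSO they were WTAP with RBM15B, VIRMA with RBM15, RBM15 with CBLL1 and ZC3H13 with METTL14. RBM15 thus stood below VIRMA with DMSO, among genes that did not differ from it beyond their spread, and was clear of its neighbours on both sides under WD6305. METTL14 and ZC3H13 had the lowest FPKM of the 8 in both groups. Against the 11144 genes with at least 1 FPKM in at least 3 libraries, whose median was 6.19 FPKM under WD6305 and 6.14 FPKM with DMSO, METTL3 stood at the 70.5th percentile under WD6305 and the 67.0th with DMSO, and METTL14 at the 42.7th and the 34.9th.

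The 8 messages together summed to 87.6, 84.6 and 86.6 FPKM in the WD6305 libraries, against 71.6, 72.7 and 77.3 FPKM in the DMSO libraries. METTL3 made up 14.4% ± 0.189 of this sum under WD6305 and 14.8% ± 0.856 with DMSO, a difference smaller than the spread between the DMSO libraries. RBM15 made up 13.3% ± 0.535 under WD6305 and 10.5% ± 0.645 with DMSO, and METTL14 made up 5.67% ± 0.169 and 4.98% ± 0.389. The share of RBM15B was 19.1% ± 0.473 under WD6305 and 21.8% ± 2.00 with DMSO (mean ± SD, n = 3 libraries per group). Shares of 1 sum are bound to each other, so a larger share of RBM15 lowers the others.

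Ratios of messages within a library do not depend on how libraries are scaled, and 5 were compared. The METTL14 to METTL3 ratio was 0.410, 0.381 and 0.389 under WD6305 and 0.318, 0.316 and 0.378 with DMSO. On the FPKM scale, the METTL14 message was thus less abundant than the METTL3 message in every library, which says nothing of the proteins. The groups did not overlap, with DMSO 3 close to the treated libraries. With 1 FPKM added to each value, the log2 difference was 0.16 (exact permutation p = 0.2). The RBM15 to METTL3 ratio was 0.897, 0.961 and 0.905 under WD6305, against 0.621, 0.732 and 0.782 with DMSO. The adaptor paralogs differed most: the RBM15 to RBM15B ratio was 0.679, 0.703 and 0.699 under WD6305, against 0.444, 0.446 and 0.560 with DMSO, a log2 difference of 0.53. These 3 ratios were higher in each treated library than in any vehicle library, and the exact permutation test, two-sided, reached its smallest possible p = 0.1 for each, or 0.167 after Benjamini-Hochberg adjustment over the 5. Without WD6305 1 and DMSO 3 together, the log2 difference was 0.28 for METTL14 to METTL3, against 0.23 with all libraries, 0.47 against 0.38 for RBM15 to METTL3, and 0.66 against 0.53 for RBM15 to RBM15B.

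The WTAP to METTL3 ratio, in contrast, was 1.54, 1.45 and 1.47 under WD6305 and 1.42, 1.5 and 1.55 with DMSO. The treated libraries lay inside the vehicle range, and the log2 difference of -0.0041 was smaller than the spread between libraries (exact permutation p = 0.9). The ZC3H13 to VIRMA ratio was 0.612, 0.544 and 0.556 under WD6305 and 0.446, 0.457 and 0.549 with DMSO. These groups overlapped through DMSO 3, and the log2 difference of 0.24 had an exact permutation p = 0.2.

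**Figure D3:**
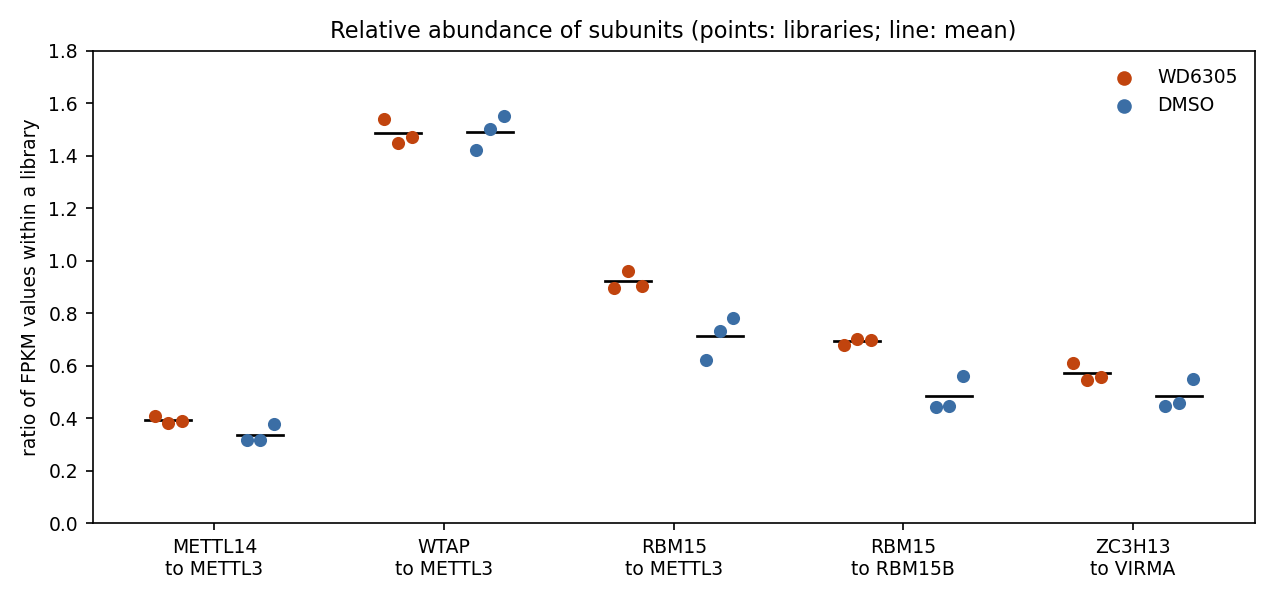
Ratio of FPKM values of 2 subunit genes within each library (vertical axis, from 0), WD6305 libraries left of DMSO libraries, with the group mean as a line. The RBM15 to RBM15B ratio separates the groups most, with 0.679 to 0.703 under WD6305 and 0.444 to 0.560 with DMSO, while the WTAP to METTL3 ratio overlaps between them.

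The offset of DMSO 3 differed between subunits. Relative to the mean of DMSO 1 and 2, DMSO 3 was higher by 0.57 for ZC3H13, 0.30 for VIRMA, 0.22 for METTL14 and 0.18 for RBM15 (log2 of CPM), and ZC3H13 stood at the 97.9th percentile of this offset among all tested genes. For WTAP the offset was 0.06, for METTL3 it was -0.03, for CBLL1 -0.08 and for RBM15B -0.15. In WD6305 1, set against WD6305 2 and 3, the offsets of the 8 genes lay between -0.05 for RBM15 and 0.13 for CBLL1. The spread of ZC3H13 and VIRMA with DMSO thus lies in 1 library, and the same library lies nearest the treated ones for METTL14, WTAP and RBM15.

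The sequence upstream of the subunit genes was examined as a description, and no link between a motif and a change was tested. RefSeq (GRCh38.p14) gave the 250 bases before the start for 7 of the 8 genes, with an alternative start for WTAP, and VIRMA had no entry. The genes not called were thus represented by RBM15B (log2 fold change 0.06) and ZC3H13 (0.42) alone. The letters searched on both strands were CCAAT, the GC box GGGCGG, the E-box CACGTG and the ETS-type CCGGAAG, none of which contains another, and the NRF1 motif, which was in no window of these genes and in 1.03% of all windows. RBM15 held 4 CCAAT matches, a number reached or passed by 0.874% of 35116 RefSeq windows of the same length. That share is over windows of all genes, and several genes and motifs were searched, so it is no test. METTL14, ZC3H13, CBLL1 and 1 of the WTAP windows held 1, where 32.0% of windows hold at least 1, and METTL3 and RBM15B held 0. The RBM15 matches are shown 5′ to 3′ on the plus strand of chromosome 1 with at most 10 bases on each side and the matched letters in capitals, since this gene had the largest change. They lie at chr1:110339160-110339184, chr1:110339260-110339284, chr1:110339293-110339317 and chr1:110339362-110339376, in that order.
RBM15 site 1: gactttttgtCCAATcaacacctca
RBM15 site 2: acaaatgtaaCCAATgaggtactcc
RBM15 site 3: ggttgggaacCCAATaacagtggtt
RBM15 site 4: aataattttcCCAAT
The RefSeq start of RBM15 lies downstream of the gene start in the annotation of the deposited table, so this window lies inside the annotated gene, as do the windows of WTAP and CBLL1.

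METTL3, METTL14, ZC3H13 and CBLL1 each held 1 match to CCGGAAG, which 8.52% of windows contain, and RBM15, RBM15B and WTAP held 0. The E-box was found once in RBM15 and once in RBM15B, against 6.34% of windows with at least 1. The GC box was counted 3 times in RBM15B and 2 times in RBM15, 2 and 4 times in the WTAP windows and 1 time in CBLL1, and METTL3, METTL14 and ZC3H13 held 0. Of all windows 42.6% hold at least 1 GC box, 24.3% at least 2, 13.9% at least 3 and 7.63% at least 4. The windows of METTL3 and METTL14, the catalytic pair, and of RBM15B are shown 5′ to 3′ on the gene's strand, ended before the first annotated exon of the gene in GENCODE release 29, with the matches inside the stretch in capitals (on the opposite strand they read CTTCCGG and CCGCCC). The CCAAT of METTL14 and 1 GC box of RBM15B lie beyond the end of the stretch shown.
METTL3, chr14:21511376-21511590, minus strand: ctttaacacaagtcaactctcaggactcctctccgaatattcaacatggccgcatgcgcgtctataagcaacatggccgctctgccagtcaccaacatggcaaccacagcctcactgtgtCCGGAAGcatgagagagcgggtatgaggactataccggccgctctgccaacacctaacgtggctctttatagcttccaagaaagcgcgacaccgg
METTL14, chr4:118685142-118685367, plus strand: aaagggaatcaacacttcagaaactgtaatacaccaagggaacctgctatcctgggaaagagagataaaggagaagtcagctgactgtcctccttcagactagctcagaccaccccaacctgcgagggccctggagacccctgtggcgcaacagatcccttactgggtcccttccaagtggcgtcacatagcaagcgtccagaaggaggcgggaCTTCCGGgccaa
RBM15B, chr3:51391035-51391267, plus strand: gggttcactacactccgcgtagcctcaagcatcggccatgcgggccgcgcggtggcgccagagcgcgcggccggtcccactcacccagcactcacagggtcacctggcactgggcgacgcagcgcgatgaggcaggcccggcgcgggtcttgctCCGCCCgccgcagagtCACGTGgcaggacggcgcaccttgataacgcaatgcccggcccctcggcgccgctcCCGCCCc
A match is a run of letters and does not show that a factor binds there.

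The genes whose levels followed the subunits most closely were found by the root mean square difference over the 6 libraries of log2(FPKM + 1), each gene centred on its own mean, among 6189 genes with a mean of at least 5 FPKM. Nearest to METTL3 were COG7 (difference 0.00852), PHTF1 (0.0178) and IRF8 (0.0204), where METTL3 itself varied with an SD of 0.0926. COG7 encodes a Golgi tethering subunit and had 6.52 FPKM under WD6305 and 5.70 FPKM with DMSO, and IRF8, a transcription factor of monocytes, had 38.9 FPKM and 34.3 FPKM. Near to METTL14 were UGP2 (0.0223) and SMIM15 (0.0305). UGP2, which makes UDP-glucose, had 12.5 FPKM under WD6305 and 9.75 FPKM with DMSO. Nearest to RBM15 were SLC22A15 (0.0295), CYBB (0.0379) and SLC35A1 (0.0428). CYBB, the membrane subunit of the phagocyte NADPH oxidase, had 71.8 FPKM under WD6305 and 51.6 FPKM with DMSO. These likenesses are descriptions over 6 libraries that fall into 2 groups.

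Outside the complex, the m6A pathway did not move in 1 direction. Of 34 other genes in 6 lists, all tested, 4 rose, 6 fell and 24 did not pass (edgeR quasi-likelihood), with a median log2 fold change of -0.08 beside 0.22 for the complex. The list medians ran from -0.19 for the exon junction complex to 0.25 for the m6A erasers, which is above that of the complex. Among all tested genes 12.2% were higher and 11.2% lower. Among tested genes with at least 1 FPKM in at least 3 libraries, 17.8% were higher and 16.1% lower. Whether the counts of these lists differ from those shares was not tested. The 10 called here had adjusted p between 0.00154 (YTHDF2) and 0.0299 (SETD2). Among 6 genes of other methyltransferases and their partners, METTL4 alone was called (3.16 FPKM under WD6305 and 2.62 FPKM with DMSO, log2 fold change 0.30, SE 0.08). METTL16, which methylates U6 small nuclear RNA, and PCIF1, which acts on the cap-adjacent adenosine, had log2 fold changes of -0.04 (SE 0.09) and 0.05 (SE 0.07). METTL5 and TRMT112, which together methylate ribosomal RNA, had -0.27 (SE 0.09) and -0.36 (SE 0.12), and ZCCHC4, the other ribosomal RNA m6A enzyme, had -0.25 (SE 0.13). None of these 5 passed.

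The m6A demethylases FTO and ALKBH5 had log2 fold changes of 0.30 (SE 0.11) and 0.20 (SE 0.06), with adjusted p = 0.0903 and 0.0514 (edgeR). Of 14 readers, the YTH-domain genes YTHDF2 (39.7 FPKM under WD6305 and 32.5 FPKM with DMSO) and YTHDC1 (15.3 and 13.0 FPKM) rose, while HNRNPA2B1, HNRNPC, PRRC2A and ELAVL1 fell by 0.27, 0.30, 0.33 and 0.21 on the log2 scale. The other 8 readers did not pass.

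Genes that place or limit m6A were mixed as well. SETD2, which writes the histone mark H3K36me3 that METTL14 recognises, rose by 0.32 on the log2 scale (SE 0.09). It had 8.53, 8.28 and 8.42 FPKM under WD6305 and 6.06, 6.36 and 8.08 FPKM with DMSO, so DMSO 3 was again the nearest vehicle library. CEBPZ, reported to bring METTL3 to promoters, and SPEN, a relative of RBM15, had 0.05 (SE 0.12) and -0.06 (SE 0.07). Of 5 exon junction complex genes, whose products keep m6A away from splice sites, EIF4A3 fell by 0.27 (SE 0.06). CASC3, MAGOH, MAGOHB and RBM8A had -0.17, -0.19, -0.24 and -0.05 and did not pass.

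In the supply of the methyl donor, AHCY, which clears the S-adenosylhomocysteine left after methyl transfer, fell by 0.27 on the log2 scale (SE 0.05, adjusted p = 0.00490, edgeR quasi-likelihood). It had 55.0, 55.8 and 50.1 FPKM under WD6305, against 66.2, 65.2 and 65.6 FPKM with DMSO. MAT2A and MAT2B, the subunits of the enzyme that makes S-adenosylmethionine, had -0.04 (SE 0.06) and 0.05 (SE 0.06), and AHCYL1 had -0.10 (SE 0.05). None of these 3 passed.

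**Figure D4:**
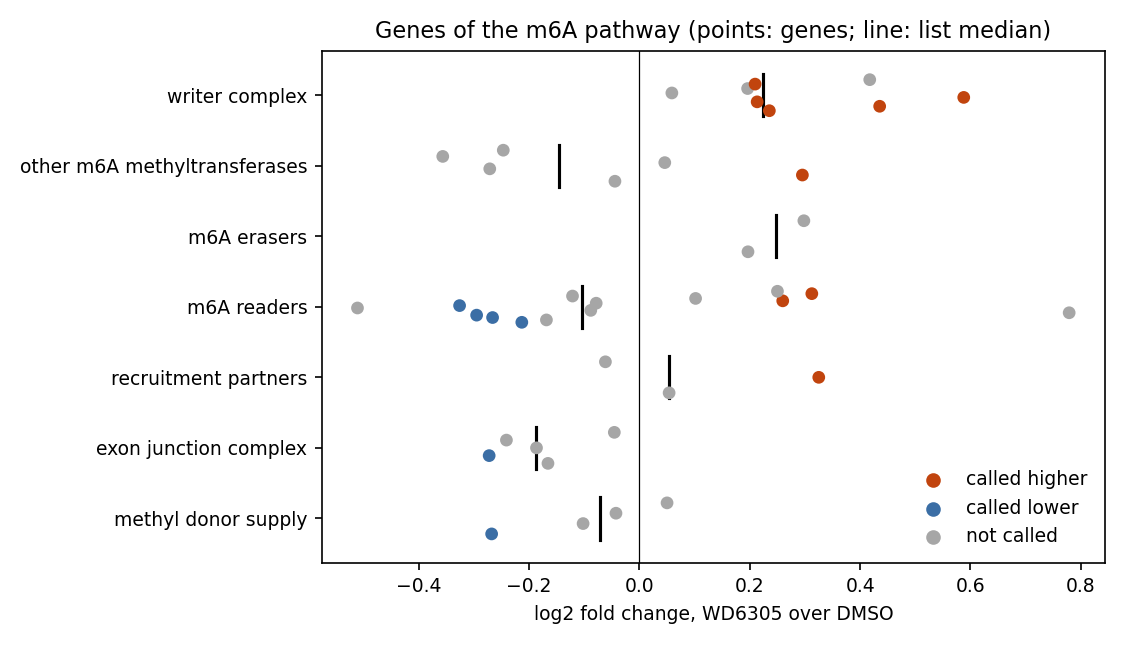
Log2 fold change, WD6305 over DMSO (horizontal axis), of the 8 writer complex genes and of 34 other genes in 6 m6A pathway lists, coloured by the edgeR call, with the list median as a line. All 8 writer complex genes lie above 0 with a median of 0.22, while the 34 other genes lie on both sides with a median of -0.08.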

How the data were processed

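Poly(A) RNA was made into cDNA libraries with a U-labelled second strand, per the labels' protocols. The submitters' processing notes name fastp, HISAT2, StringTie, edgeR and GRCh38, with no role or setting. The deposited estimated counts were already whole. A count of 4 occurred in 1071 to 1176 genes per library, a count of 3 in 553 to 636 and a count of 5 in 357 to 380, so a count may stand for less than 1 fragment, and errors rest on replicate libraries alone. The second deposited unit is FPKM, per the file headers, scaled by length and depth.

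Counts were filtered (filterByExpr), scaled by TMM and compared over all genes by the two-sided quasi-likelihood test of edgeR 4.0.16 (R 4.3.3), with Benjamini-Hochberg adjustment and intervals of 95%. The fits were also run on simulated data, where only the sign of the larger planted changes was required to be right. The simulation held no offset of single libraries, so it is no check on the calls above. Alternatives used DESeq2 1.42.0, limma 3.58.1 on log2(FPKM + 1) or log2(FPKM + 0.1), and other settings given in the closing section. The subunits and gene lists were chosen with earlier results of these data known. Named were the 8 subunits, called genes of the other lists, all genes of lists of 6 or fewer, and the 3 genes nearest to METTL3, METTL14 and RBM15. One gene that this rule names is not reported here.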

Additional observations from a re-analysis of the deposited data

How the results depend on the processing

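RBM15 and METTL14 kept their calls, and RBM15B stayed uncalled, in all 16 alternatives, and all 8 subunit genes kept a positive log2 fold change in each. With each library left out in turn, 2 to 6 subunit genes and 2756 to 4640 of all genes were called, the fewest of all genes without WD6305 replicate 3 (2756, against 4249 with all libraries). The log2 fold change then ran from 0.19 to 0.25 for METTL3, 0.18 to 0.24 for WTAP, 0.19 to 0.27 for CBLL1, 0.14 to 0.30 for VIRMA and 0.31 to 0.64 for ZC3H13, and METTL3 lost its call 4 times, WTAP 3 times and CBLL1 6 times. DESeq2 called ZC3H13 (0.41), as did edgeR with a term for DMSO 3 and WD6305 1 (0.44). Without these libraries METTL3 (0.20) and CBLL1 (0.16) were lost and VIRMA (0.31) and ZC3H13 (0.60) were called. CBLL1 was lost with library sizes alone (0.21) and with no filter on low counts (0.24), and limma on FPKM with no filter called 3 subunit genes, without WTAP (0.18) and CBLL1 (0.19). The cause was not tested.

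Deviations from the group means correlated at -0.214, 0.0528 and -0.122 for same-numbered libraries. For differently numbered libraries the correlations ran from -0.157 to 0.235, the highest being that of WD6305 1 with DMSO 3. At 3 libraries per group, these values do not settle whether replicate numbers pair the samples. With the replicate block 3 subunit genes and 3204 of all genes were called, METTL3 (0.21) and CBLL1 (0.23) being lost. For the 5 ratios, the block mean equals the unpaired difference by construction, so it is no check on them. The share of calls that were higher was 52.2%, 46.1% with library sizes alone and 45.8% with limma on log2(FPKM + 1). With counts divided by 4, the 5 subunit genes called were those of the deposited counts. At 3 libraries per group no ratio could pass the exact test.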
